A study of Mus musculus with 6 samples.

Results

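Hormone-sensing luminal cells are the part of the mammary epithelium that carries the receptors for estrogen and progesterone, and 10 genes of their receptors and markers were asked for by symbol: Esr1, Pgr, Prlr, Cited1, Greb1, Prom1, Ly6a, Ly6d, Cd55 and Ptn. The rows of 9 of them were found among the 16701 genes of the authors' deposited table, and Greb1 was not analysed here. The study asks what occludin, a membrane protein of tight junctions encoded by Ocln, and its partner FIP5 do for the mitotic spindle. For its RNA-seq part, polyadenylated RNA of luminal epithelial cells of the mouse mammary gland was compared between 3 libraries of wild-type control mice and 3 of mice with an Ocln knockout, labelled Ocln-/-, all 7 weeks old. The labels give neither strain, estrous stage nor the way the cells were isolated, and do not say whether each library is 1 mouse, so the p-values cover only the variation among these libraries, some of it possibly technical.

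In the duct, estrogen and progesterone bind receptors inside hormone-sensing luminal cells, which pass the signal on to neighbouring cells through secreted factors such as amphiregulin (Areg), Wnt4 and RANKL. Prolactin acts through a receptor at the cell surface that signals by the kinase Jak2 and the transcription factor Stat5. Surface proteins such as Prom1 (CD133) and Ly6a (Sca-1) are used to sort hormone-sensing luminal cells from the alveolar type, which lacks the steroid receptors.

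The cells had the expression of a luminal preparation. Krt18 and Krt8, the keratins of luminal cells, had the 9th and 37th highest mean levels per kb of exon, and 8 pan-luminal markers held 1.58 percent of all normalized counts. The 10 markers of basal cells held 0.00988 percent, the 8 endothelial markers 0.0187 percent and the 9 fibroblast markers 0.00647 percent. Of 10 haematopoietic markers 6 were listed and held 0.00615 percent. Of 5 adipocyte markers Fabp4 alone was listed and held 0.00189 percent. Ocln itself stood at 44.9 percent of control (95 percent interval 35.9 to 56.2) by the authors' deposited table. The table gives 1 mean level per gene over the 6 libraries, a log2 fold change of knockout over control and its standard error (SE). The level of each genotype was therefore computed from the mean level and the fold change. The depth and the values of single libraries are unknown here, as is the model formula, and this computation takes genotype as its only term.

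None of the 9 genes passed the authors' DESeq2 test at an adjusted p under 0.05, which 1.08 percent of all listed genes did, 0.808 percent as higher and 0.275 percent as lower. The authors' own rule called 0 of the 9 as well, and 2.79 percent of all genes. Without adjustment for the number of genes, Cd55 was higher and Ptn lower at a p under 0.05, that is 2 of 9. Of all listed genes 9.07 percent were past that limit, 5.23 percent as higher and 3.83 percent as lower. The log2 fold change was negative for 7 members and positive for 2, Cd55 and Prom1, with a median of -0.30 against -0.01 over all genes. The hormone receptors and Cited1 were all on the negative side, and every one of their 95 percent intervals included no change. In RNA of a cell mixture, fewer cells of a type and less RNA per cell cannot be told apart.

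**Figure D1:**
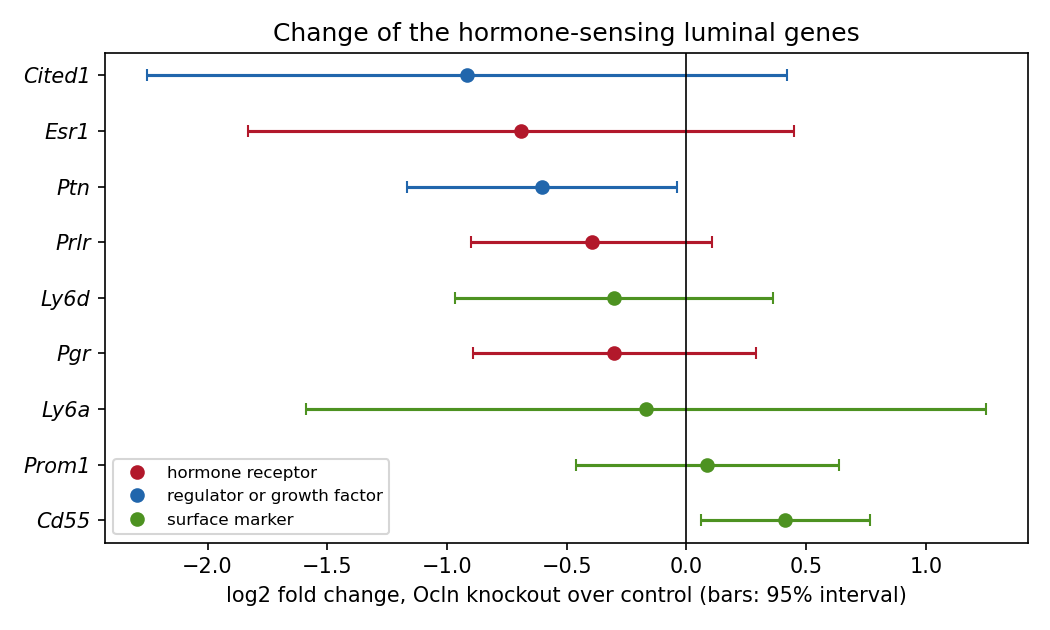
Log2 fold change of the 9 listed members, knockout over control, with 95 percent intervals (normal approximation from the SE) from the authors' deposited table. The interval of Ptn ends just below 0 at -0.04, that of Cd55 starts at 0.06, and the other 7 cross 0.

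The members differed widely in abundance. Per kb of exon, Ptn had the highest mean level (23783 normalized counts per kb), followed by Ly6d (21098), Ly6a (5783), Cited1 (3559), Prlr (3332), Pgr (853), Prom1 (523), Cd55 (383) and Esr1 (257). The order was the same when the longest transcript was used as the length. With the spread between libraries that the SE implies, most neighbours in this order overlapped. Members further apart in the order could differ: Pgr (634 to 1071 within 1 SD) lay above Esr1 (130 to 383). Ptn and Ly6d overlapped within 1 SD, as did Ly6a with Cited1 and Cited1 with Prlr, and each neighbouring pair from Pgr to Esr1. Ly6d stood 3.65 times above Ly6a and Prlr 3.91 times above Pgr, both beyond that spread.

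**Figure D2:**
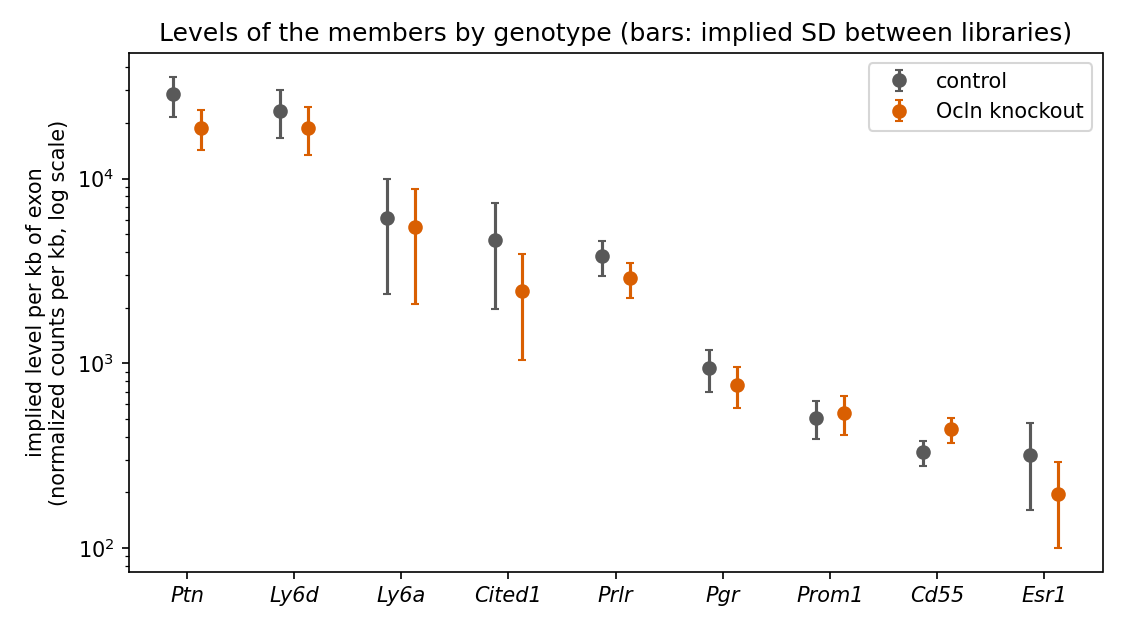
Level of each member in control (grey) and Ocln knockout (orange), in normalized counts per kb of exon on a log axis, computed from the mean level and the fold change, with bars of 1 SD between libraries as implied by the SE. The bars show spread between libraries and are no test of a difference between the genotypes. They are longest, relative to the level, for Ly6a, Cited1 and Esr1.

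Esr1 encodes estrogen receptor alpha, the nuclear receptor through which estrogen acts on the duct. Its computed level was 4327 normalized counts in control and 2682 in knockout. The authors' deposited table puts its log2 fold change at -0.69 ± 0.58 (SE, adjusted p = 0.824 by DESeq2), which is 62.0 percent of control, the 95 percent interval running from 28.1 to 137 percent. The interval holds both a strong fall and a moderate rise, so the direction of Esr1 was not resolved. Pgr, the progesterone receptor gene and a classical estrogen target, stood at 8045 in control and 6530 in knockout. In the authors' deposited table its log2 fold change was -0.30 ± 0.30 (DESeq2 adjusted p = 0.872), or 81.2 percent of control, with an interval of 53.9 to 122 percent.

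Prlr, the prolactin receptor gene, was the best measured of the receptors, with the lowest SE of the 3 and a mean level of 51105 normalized counts. Its computed level was 58073 in control and 44137 in knockout. In the authors' deposited table its log2 fold change was -0.40 ± 0.26 (unadjusted DESeq2 p = 0.124, adjusted p = 0.717), or 76.0 percent of control with an interval of 53.6 to 108 percent. A halving of Prlr was outside its interval, and the same held for Pgr, Prom1, Ly6d and Cd55. For Esr1, Cited1, Ly6a and Ptn a halving was within it.

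Cited1 encodes a transcriptional coactivator without a DNA-binding domain of its own that partners estrogen receptor alpha. It had the most negative log2 fold change of the members, -0.92 ± 0.68 by the authors' deposited table (DESeq2 adjusted p = 0.778), at computed levels of 8162 in control and 4324 in knockout. This is 53.0 percent of control, with an interval of 20.98 to 134 percent. Ptn encodes pleiotrophin, a secreted heparin-binding growth factor, and had the 63rd highest mean level per kb of all listed genes with a known length. Its computed level was 98437 in control and 64859 in knockout. The log2 fold change of Ptn by the authors' deposited table was -0.60 ± 0.29 (unadjusted DESeq2 p = 0.0362, adjusted p = 0.497), or 65.9 percent of control with an unadjusted interval of 44.6 to 97.4 percent.

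The promoter windows of the members were searched for hormone response elements, since steroid receptors bind DNA at such sites. RefSeq gives 13 windows of 300 bases (GRCm38.p6, from 250 bases before to 50 after a start site) for 7 of the 9 listed members, with none matched for Ly6a and Ly6d. The full estrogen response element, GGTCA and TGACC with 3 bases between them, occurred in 0 of these 13 windows and in 0.0700 percent of all 32851 windows. Its half-site GGTCA, on either strand, occurred in 4 of the 13, 1 of Esr1, 2 of Cited1 and 1 of Prom1, and in 40.5 percent of all windows. The steroid receptor half-site TGTTCT, on either strand, occurred in 3 of the 13, 1 each of Prlr, Prom1 and Ptn, and in 18.97 percent of all. The first listed windows of the 3 members with the most negative log2 fold change are shown. Each holds the 250 bases before the start site and 20 bases from it onward. Half-sites are in capitals (GGTCA, or TGACC on the other strand, in Esr1 and Cited1, and TGTTCT, read as AGAACA on the other strand, in Ptn). They are chr10:4611739-4612008 on the plus strand, and chrX:102252162-102252431 and chr6:36810160-36810429 on the minus strand, each written 5′ to 3′ along the gene. These matches are letters in a window and carry no measurement of binding.
Esr1: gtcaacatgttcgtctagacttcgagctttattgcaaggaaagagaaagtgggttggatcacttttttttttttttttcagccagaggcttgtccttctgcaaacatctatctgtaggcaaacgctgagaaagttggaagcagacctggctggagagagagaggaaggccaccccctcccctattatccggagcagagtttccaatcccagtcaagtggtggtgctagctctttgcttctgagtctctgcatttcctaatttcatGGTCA
Cited1: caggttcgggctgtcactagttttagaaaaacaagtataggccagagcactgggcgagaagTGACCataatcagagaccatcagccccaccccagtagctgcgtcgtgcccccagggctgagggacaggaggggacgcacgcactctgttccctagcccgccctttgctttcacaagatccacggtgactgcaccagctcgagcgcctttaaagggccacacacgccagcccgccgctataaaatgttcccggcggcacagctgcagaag
Ptn: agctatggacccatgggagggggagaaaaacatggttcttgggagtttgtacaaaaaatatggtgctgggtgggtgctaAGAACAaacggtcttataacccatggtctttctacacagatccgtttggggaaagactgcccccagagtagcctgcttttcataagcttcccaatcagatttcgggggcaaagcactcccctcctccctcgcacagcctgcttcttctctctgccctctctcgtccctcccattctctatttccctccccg
The site of Esr1 lies just behind its start, that of Cited1 189 bases before it and that of Ptn 171 bases before it, so the sites in these 3 windows stand at different distances from the start.

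The surface markers did not share a direction. Cd55, which encodes decay-accelerating factor, a brake on complement at the cell surface, stood at 1594 in control and 2124 in knockout, or 133 percent of control with an unadjusted interval of 104 to 170 percent. Its log2 fold change by the authors' deposited table was 0.41 ± 0.18 (unadjusted DESeq2 p = 0.0218, adjusted p = 0.42). Prom1, a pentaspan protein of membrane protrusions, was at 3638 in control and 3865 in knockout, with a value of 0.09 ± 0.28 by the authors' deposited table (DESeq2 adjusted p = 0.972) and an interval of 72.6 to 156 percent of control. The interval of Prom1 thus excluded a halving and a doubling, and the same was true of Pgr, Prlr, Ly6d and Cd55.

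Ly6d and Ly6a both encode small proteins of the Ly6 family held to the membrane by a lipid anchor. Ly6d was at 17342 in control and 14052 in knockout, and its log2 fold change by the authors' deposited table was -0.30 ± 0.34 (DESeq2 adjusted p = 0.892). Ly6a was at 7379 in control and 6558 in knockout, with -0.17 ± 0.72 by the authors' deposited table (DESeq2 adjusted p = 0.983). The interval of Ly6a ran from 33.2 to 238 percent of control, the widest of the members, so a 2-fold difference in either direction lay within it. Endothelial cells and fibroblasts also express Ly6a. The summed computed level of the 8 endothelial markers was 4510 in control and 4304 in knockout, that of the 9 fibroblast markers 1624 and 1419. Single genes weigh heavily in these sums. The endothelial Eng was at 1573 in control and 1112 in knockout, and the fibroblast Dcn at 557 and 217. The median log2 fold changes of the 2 lists were -0.02 and 0.0060. The part of these cells in the Ly6a value was not tested.

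The members were measured less precisely than most genes of like level. All 9 members had an SE above the median of genes of like level, taken from 20 equal bins of mean level, by a factor of 1.07 for Cd55 to 4.12 for Ly6a. The SE of Ly6a by the authors' deposited table (0.72) was exceeded by 4 of the 835 genes in its bin, that of Cited1 (0.68) by 6 of 835 and that of Esr1 (0.58) by 14 of 835. An SE of more than 3 times the bin median, a limit chosen after the values were seen, was found for 3 of 9 members and for 1.27 percent of all listed genes. Among the 1670 genes whose mean level was 2924 or higher, the widest empty stretch of the ratio was searched for. It ran from 2.14 to 3.15, with 31 genes above it. The search used these same values, so the stretch gives no separate support for the limit of 3. Esr1, Cited1 and Ly6a lay above that stretch, and Pgr, Prlr, Prom1, Ly6d and Ptn lay below it at 1.46 to 1.93 times the bin median. DESeq2 by default pulls the dispersion of a gene toward that of genes of like level, but leaves it as estimated where it is far above them. Which of its settings the authors used is not given here.

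**Figure D3:**
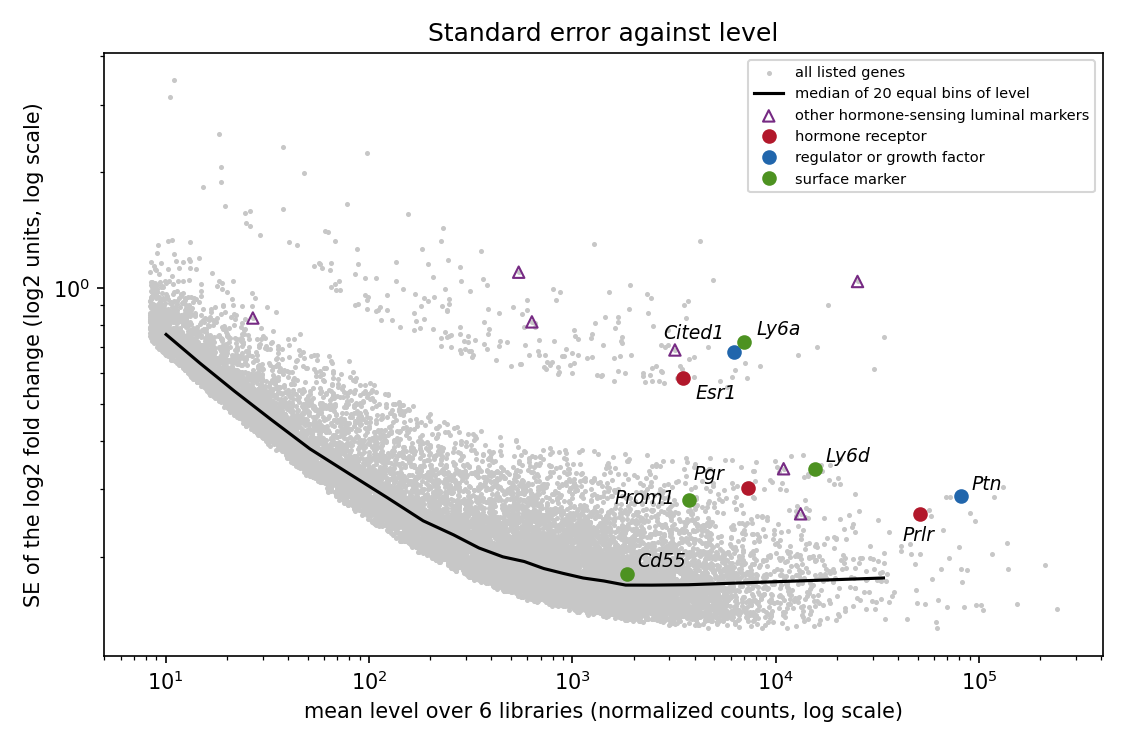
SE of the log2 fold change against mean level over the 6 libraries, both on log axes, for all listed genes (grey), the members (coloured by role) and 7 other hormone-sensing luminal markers (triangles), with the median of 20 equal bins (line). Esr1, Cited1 and Ly6a lie in the sparse upper band, at SEs of 0.58, 0.68 and 0.72, and the other members lie in the main cloud on or above the line.

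In terms of the libraries, the SE of Ly6a corresponds to a coefficient of variation of 61.5 percent between libraries of 1 genotype beyond counting noise, that of Cited1 to 57.9 percent and that of Esr1 to 49.4 percent. These values were computed from the SE for a negative binomial model with 3 libraries a genotype. The same value was 28.7 percent for Ly6d, 25.6 for Pgr, 24.4 for Ptn, 23.8 for Prom1, 21.8 for Prlr and 15.1 for Cd55, and the median in the bin of highest level was 14.9 percent. The smallest Wald score that passed at an adjusted p of 0.05 was 3.46 in size. At its own SE, Ly6a would therefore have needed a 5.68-fold difference to pass, Cited1 5.13-fold and Esr1 4.04-fold. Cd55 would have needed 1.54-fold, Prlr 1.85-fold and Ptn 1.99-fold.

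A wide spread was also found for some other genes of hormone-sensing cells, but not for them alone. Of 8 further markers of hormone-sensing luminal cells, 7 were listed, 0 passed the DESeq2 test and 0 had an unadjusted p under 0.05. All 7 had an SE above their bin median, and for 4 of them, Gpx3, Tph1, Fxyd2 and Cxcl15, it was over 3 times that median. Gpx3, which encodes a secreted glutathione peroxidase and had the highest mean level of this list, stood at 0.63 ± 1.04 on the log2 scale by the authors' deposited table. The calcium-binding protein gene S100a6, second in level, stood at -0.46 ± 0.26 by the authors' deposited table (DESeq2 adjusted p = 0.623). Their directions were mixed, with 4 positive and 3 negative values, a range of -1.06 for Fxyd2 to 1.44 for Bmpr1b, and a median of 0.54. That median is the value of Cxcl15 (0.54 ± 0.69 by the authors' deposited table), so its sign was not resolved. The SEs of Tph1 (1.10), Bmpr1b (0.83, at a mean level of 26.8) and the negative Fxyd2 (0.82) were also wide. S100a6 and Wfdc2 (-0.29 ± 0.34 by the authors' deposited table) had the lowest SEs of the list. Both were negative, but their 95 percent intervals included no change, so their signs were not resolved either. The steroid target Areg, the main estrogen-induced growth factor of the duct, was at 0.13 ± 0.63 by the authors' deposited table. Wnt4, a secreted signal downstream of progesterone, was at -0.75 ± 0.62 by the authors' deposited table. Areg and Wnt4 were the 2 of 11 listed steroid targets and paracrine signals with an SE of over 3 times their bin median. Fxyd2, Tph1, Cxcl15, Bmpr1b, Wfdc2, Areg and Wnt4 were named after their values were seen. Of the alveolar luminal progenitor markers 0 of 14, and of the pan-luminal markers 0 of 8, had an SE over 3 times the bin median. Their highest ratios were 1.76 and 1.42. Such an SE was found for 2 of 6 haematopoietic markers and 1 of 15 steroid receptor cofactors and pioneer factors. It was found for 0 of 14 genes of prolactin receptor signalling and 0 of 19 other nuclear receptors. An SE merely above the bin median was not particular to hormone-sensing genes. This held for 13 of 14 alveolar, 9 of 10 basal, 8 of 9 fibroblast and 6 of 6 haematopoietic markers. It held for 3 of 8 pan-luminal markers and 8 of 19 other nuclear receptors. The median ratio was 1.72 for the members and 1.44 for the alveolar markers. The difference between these lists was not tested.

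None of the nuclear partners of the receptors passed the test. Of 15 listed steroid receptor cofactors and pioneer factors, 0 passed and 1, Spdef, was lower at an unadjusted p under 0.05 (-0.63 ± 0.28 by the authors' deposited table), and 9 values were negative and 6 positive. Their log2 fold changes ran from -1.26 to 0.50, with a median of -0.04. Foxa1, the pioneer factor that opens chromatin for estrogen receptor alpha and the most abundant of the list, was at -0.54 ± 0.31 by the authors' deposited table (DESeq2 adjusted p = 0.642). Further luminal transcription factors, named after their values were seen, were Gata3 at -0.39 ± 0.24, Tbx3 at -0.48 ± 0.26 and Myb at -1.26 ± 0.86, with Tfap2c at 0.50 ± 0.29 in the other direction, by the authors' deposited table, none of which passed. Among 19 listed nuclear receptors beside Esr1 and Pgr, 0 passed, 1 was lower at an unadjusted p under 0.05, and the median was -0.02. The orphan receptor gene Nr4a1 (-0.02 ± 0.23) and the retinoic acid receptor gene Rarg (0.14 ± 0.22) had the highest levels of that list by the authors' deposited table.

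Targets of the steroid hormones and their paracrine signals gave 0 calls among 11 listed genes of 16, with 2 of them higher and 1 of them lower by the unadjusted p and a median of 0.01. Stc2, which encodes the secreted glycoprotein stanniocalcin, had the highest mean level and stood at -0.65 ± 0.31 by the authors' deposited table (unadjusted DESeq2 p = 0.0354, adjusted p = 0.495). Celsr2, a cadherin of planar polarity, was at 0.47 ± 0.16 by the authors' deposited table (unadjusted DESeq2 p = 0.00295, adjusted p = 0.147). Calca, Tff3, Agr2, Pdzk1 and Tnfsf11, which encodes RANKL, are not among the listed genes. Of 14 genes of prolactin receptor signalling, all listed, 0 passed, 1 was higher at an unadjusted p under 0.05 and the median was -0.06. That gene was Elf5, a transcription factor induced by prolactin and a marker of the alveolar lineage, at 0.51 ± 0.17 by the authors' deposited table (unadjusted DESeq2 p = 0.0033, adjusted p = 0.157). The feedback inhibitor gene Socs3 was at -0.34 ± 0.32, Jak2 at -0.07 ± 0.15, Stat5a at -0.25 ± 0.27 and Stat5b at -0.02 ± 0.18 by the authors' deposited table. The SEs of Jak2 and Stat5b were below that of every member.

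Among relatives of the surface markers and of Ptn, 1 gene passed. Of 8 listed genes of the Ly6 family other than the members, Lypd3, which encodes a lipid-anchored surface protein of epithelia, was higher in the knockout, at 1.06 ± 0.23 on the log2 scale by the authors' deposited table (DESeq2 adjusted p = 0.00137). Ly6e, the most abundant of that list at 65145 normalized counts, was at -0.0025 ± 0.19 by the authors' deposited table, and the median of the list was -0.03. Of 8 listed complement regulators related to Cd55 in function, 0 passed and 1 had a positive value with an unadjusted p under 0.05. This was Clu, the gene of the secreted chaperone clusterin, at 0.69 ± 0.21 by the authors' deposited table (unadjusted DESeq2 p = 0.00118, adjusted p = 0.0794). Cr1l, a membrane regulator of complement that is, with Clu, the most abundant of the list, was at 0.14 ± 0.14 by the authors' deposited table. Of 10 relatives and receptors of Ptn, 0 passed and 2 were higher at an unadjusted p under 0.05, with a median of 0.17. The syndecan gene Sdc4 (0.12 ± 0.21) and the nucleolin gene Ncl (0.11 ± 0.20) had the highest levels of that list by the authors' deposited table. Prom2, Cited2 and Cited4, the relatives of Prom1 and Cited1, were at -0.38 ± 0.23, -0.19 ± 0.24 and -0.05 ± 0.25 by the authors' deposited table, with 0 calls and 0 at an unadjusted p under 0.05. Over all 95 listed genes of these 9 lists, 1 was called, or 1.05 percent, near the 1.08 percent of all listed genes.

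**Figure D4:**
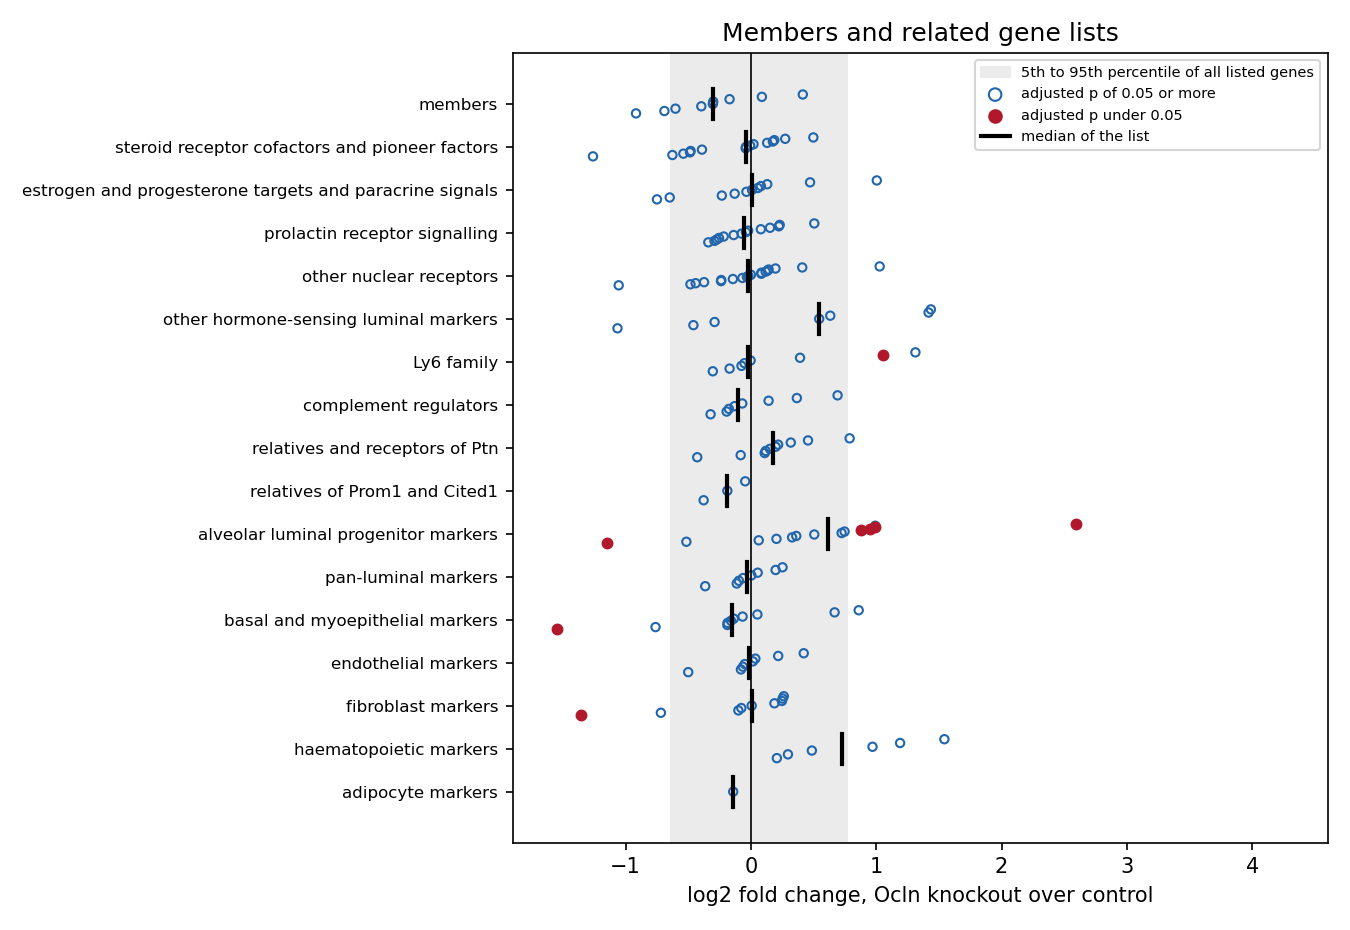
Log2 fold change, knockout over control, of the members and of each gene list (circles, filled red where the adjusted p was under 0.05), with the median of each list (bar) and the range from the 5th to the 95th percentile of all listed genes (grey, -0.64 to 0.76). The members had a median of -0.30 with no filled circle, and Lypd3 is the filled circle of the Ly6 family.

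The alveolar luminal progenitor markers are the closest counterpart of the members in the same tissue. Of these 14 genes 4 were called higher and 1 lower, with a median log2 fold change of 0.61, beside 0 of 9 and a median of -0.30 for the hormone-sensing members. Over all listed genes 0.808 percent were called higher and 0.275 percent lower, so 0 calls among 9 genes is near that share. The lists were also not measured with like precision. The SE reached 4.12 times the bin median among the members and 1.76 times among the alveolar markers. The median ratios lay closer together, at 1.72 for the members and 1.44 for the alveolar markers. Ltf, the lactoferrin gene, was the largest of these changes at 2.59 ± 0.29 by the authors' deposited table (DESeq2 adjusted p = 1.15e-15). Trf, the transferrin gene (0.99 ± 0.26), Mfge8, the gene of a milk fat globule protein (0.95 ± 0.26), and Wfdc18 (0.88 ± 0.25) were the other genes called higher by the authors' deposited table. Csn3, the kappa-casein gene, was called lower at -1.15 ± 0.31 by the same deposited table. The count depends on the threshold: by the authors' own call Ltf was higher and Csn3 lower, and at an adjusted p under 0.01 Ltf alone passed. The lists were chosen with earlier results of these data known, and the difference between them was not tested. Of the 10 basal markers, 0 were called higher and 1 lower, Oxtr, the oxytocin receptor gene, at -1.55 ± 0.38 by the authors' deposited table. The median of that list was -0.15 with 3 positive values, among them the keratin gene Krt17 at 0.86 ± 0.42 (unadjusted DESeq2 p = 0.0411), while Acta2, the smooth muscle actin gene and the most abundant of the list, was at -0.16 ± 0.28 by the authors' deposited table. Of the 9 fibroblast markers, 0 were called higher and 1 lower, Dcn, the decorin gene, at -1.36 ± 0.35 by the authors' deposited table. The other values of that list went both ways, with 5 of 9 positive, a median of 0.0060 and the collagen gene Col3a1 at 0.25 ± 0.34 by the authors' deposited table. The 6 listed haematopoietic markers all had positive values, with a median of 0.73, 0 calls and 1 of them at an unadjusted p under 0.05, and 2 of them had an SE over 3 times the bin median. The part of these cells in the values of the members was not tested.

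In the annotation of the mouse genome used here (GENCODE M21, GRCm38, the same build as mm10), all 9 listed members are protein-coding. Esr1 lies on the plus strand of chromosome 10 from 4611593 to 5005614, Pgr on the plus strand of chromosome 9 from 8899833 to 8968611, and Prlr on the plus strand of chromosome 15 from 10177238 to 10349180. Ly6d (74762056 to 74763620) and Ly6a (74994877 to 74998031) lie on the minus strand of the same chromosome 15. Cited1 lies on the X chromosome from 102247381 to 102252181, Prom1 on chromosome 5 from 43993620 to 44102032, Cd55 on chromosome 1 from 130439027 to 130462744 and Ptn on chromosome 6 from 36714929 to 36810220, all on the minus strand. Of the stretches of 50 bases in the Ly6a transcripts, 18.97 percent also occur in transcripts of other genes, most of them in Ly6c1, so reads of Ly6a could be split or shared by the counting. In the authors' deposited table Ly6c1 had a mean level of 143 normalized counts and a value of -0.08 ± 0.27 on the log2 scale. For Cd55 the share was 7.998 percent, all with its neighbour copy Cd55b, whose mean level by the authors' deposited table was 11.1. It was 1.03 percent for Prlr, 0.344 percent for Prom1 and 0 for the other 5. Antisense genes overlap 5.91 percent of the exon bases of Prom1 and 2.10 percent of those of Cd55, and no source used here says whether the counting used strand.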

How the data were processed

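DESeq2 (no version) and the build mm10 are named by the submitters' processing notes. Per the file headers, the authors' deposited table holds the mean level as a signal (normalized counts averaged over libraries), the log2 fold change with its SE, the Wald score, the p-value, the adjusted p-value and another kind of value, the authors' call. No source used here gives the aligner, counter or annotation, and the direction was taken from the table's name. The score equalled the fold change over its SE to within 2.58e-07, and the adjusted p-values matched a Benjamini-Hochberg adjustment of the listed p-values within 0.512 percent. The lowest mean level was 8.35.

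No new test per gene was made, since no values per library were used. Intervals of 95 percent use the normal approximation from the SE. Levels by genotype and the coefficient of variation assume 3 libraries a genotype, a model of genotype alone and the dispersions of the authors' DESeq2 fit. Levels per kb use merged exons of GENCODE M21, and lengths were found for 16250 genes. Adjustment and inflation were tested on simulated data. Python 3.11.15, pandas 2.3.3 and scipy 1.17.1 were used. The members and the 16 lists of related and cell type genes were chosen with earlier results of these data known. The rule for naming genes took all members, up to 4 called genes and the 2 most abundant of each list, where the text needed them. Named outside this rule were Jak2, Stat5a, Stat5b, Cited4, Wfdc18, Ly6c1 and Cd55b, and Spdef, Krt17 and Rerg for their unadjusted p. The genes said above to be named after their values were seen also stand outside it. Other settings were a stricter adjusted p, a minimum fold change, a minimum mean level of 50, scores divided by the root of their inflation factor (1.18), fold changes less their median, scores less their median in 20 bins of transcript length, and the authors' own calls.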

Additional observations from a re-analysis of the deposited data

How the results depend on the processing

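Under each of the 7 alternatives 0 members were called, the authors' own calls included, and 62 of 63 member values kept their sign. Only the subtraction of the median and the correction for transcript length change the fold changes. Under the other settings the signs could not differ. A stricter adjusted p, a minimum fold change and the division by the inflation can only remove calls, so 0 was fixed in advance there. The exception was Ly6a, whose log2 fold change was 0.055 (unadjusted p = 0.939) once the median score by transcript length was taken out. That correction also brought the calls in the related lists to 2 higher, Lypd3 and Clu, from 1. After the scores were divided by the root of their inflation, 1 member, Cd55, kept an unadjusted p under 0.05, and Ptn did not. With the correction for transcript length the 2 members under 0.05 were Cd55 and Prlr (authors' DESeq2 score corrected, unadjusted p = 0.0462) in place of Cd55 and Ptn (unadjusted p = 0.0566). For the alveolar luminal progenitor markers, an analysis added after the data were seen, the 4 called higher and 1 lower became 1 and 0 at an adjusted p under 0.01 and after the division by the inflation, and 1 and 1 with a minimum fold change and by the authors' own call. The genes called over all listed numbered 181 as deposited, 107 at an adjusted p under 0.01, 117 when the fold change also had to reach 1 on the log2 scale, 119 after the division and 466 by the authors' own rule. No paired analysis was possible because values per library were not used here, and for the same reason the analyses that leave out each library in turn were not run. A single library that decides the values of Esr1, Cited1 or Ly6a could therefore not be looked for.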
